A study of Homo sapiens with 2 samples.

Results

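The genes described here were 9 proteases, receptors and inhibitors of pericellular proteolysis: PLAU, PLAUR, PLAT, SERPINE2, MMP1, MMP2, MMP14, TIMP1 and TIMP2. Their probes were found by name, as every non-control probe to which the array assigned one of these genes, and no measured value entered that rule. The genes themselves, however, were chosen with earlier results of these data known, so they are not a set independent of the values. That gave 10 probes on 46 spots, of 41000 probes for 30484 gene names on 43376 spots of the whole array. Of the 10 probes, 8 were above background and could be compared, 1 for each gene other than MMP2.

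RNA came from PC3, an established prostate cancer cell line derived from a bone metastasis. The cells were transfected 2 times with a non-targeting (Non-T) siRNA, the control, or with 1 of 2 siRNA duplexes against SUB1, a transcriptional coactivator that binds single-stranded DNA, and were harvested 72 h after the first transfection. Each of 2 dual-colour Agilent arrays, both on 1 slide, carried Non-T RNA labelled with Cy3 and SUB1 siRNA 1 or SUB1 siRNA 2 RNA labelled with Cy5. Each siRNA therefore had 1 array, with no biological replicate and no dye swap, so siRNA, culture and array cannot be told apart, nor can a dye effect of a probe be told apart from a knockdown effect. Nothing in the sources used here says whether the Non-T RNA of both arrays was 1 extract.

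Urokinase (PLAU), bound to its receptor (PLAUR) at the cell surface, cuts plasminogen to plasmin, a broad protease that degrades fibrin and matrix proteins and can activate latent matrix metalloproteinases. Tissue-type plasminogen activator (PLAT) makes the same cut, mainly on fibrin, and serpins such as SERPINE2 trap both activators. Matrix metalloproteinases (MMPs) cleave collagens and other matrix proteins and are held in check by the tissue inhibitors of metalloproteinases (TIMPs), and both systems have been studied in invasion of prostate cancer cells.

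All values below are log2 ratios of SUB1 siRNA (Cy5) over Non-T siRNA (Cy3), so that -1 stands for 2-fold lower and 1 for 2-fold higher, or log2 signals of 1 channel after normalization. The 4 probes for SUB1 itself had ratios of -3.75 to -1.81 with siRNA 1 and -3.50 to -1.57 with siRNA 2. Spots had median intensities of 128 (Cy3) and 116 (Cy5) in the hybridization of siRNA 1 and of 114 and 105 in that of siRNA 2. None was saturated, and 54.3% of spots in Cy3 and 64.5% to 67.2% in Cy5 were well above background. Of the probes above background, 209 were printed as replicate spots. Their spot ratios had a median SD around the probe mean of 0.078 with siRNA 1 and 0.074 with siRNA 2. Dimmer probes with replicate spots, such as that of MMP2, are not in this figure. This is a technical error within 1 hybridization and does not contain the spread between cultures. Of the markers checked in Cy3, 5 of 5 epithelial, 4 of 7 fibroblast, 1 of 3 endothelial and 2 of 3 leukocyte genes were well above background, and among those that were not were COL1A2, COL3A1, PDGFRB, CDH5 and PTPRC.

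PLAU with SUB1 siRNA 2 was the member value farthest from control, and it differed between the arrays: the signal was 27.8% of the Non-T signal with SUB1 siRNA 2 and 70.0% with SUB1 siRNA 1. The genes that encode its receptor and the second activator, PLAUR and PLAT, were at 62.2% to 69.1% of control with both siRNAs. SERPINE2, the serpin that inhibits both activators, was at 180% and 161% of control. The metalloproteinases MMP1 and MMP14 and the inhibitors TIMP1 and TIMP2 lay between 77.4% and 111% of control, and MMP2 was not well above background. None of the 8 probes passed an adjusted p of 0.05 when both siRNAs were tested together. As these are bulk samples, less RNA per cell and fewer cells that carry an RNA cannot be told apart.

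**Figure D1:**
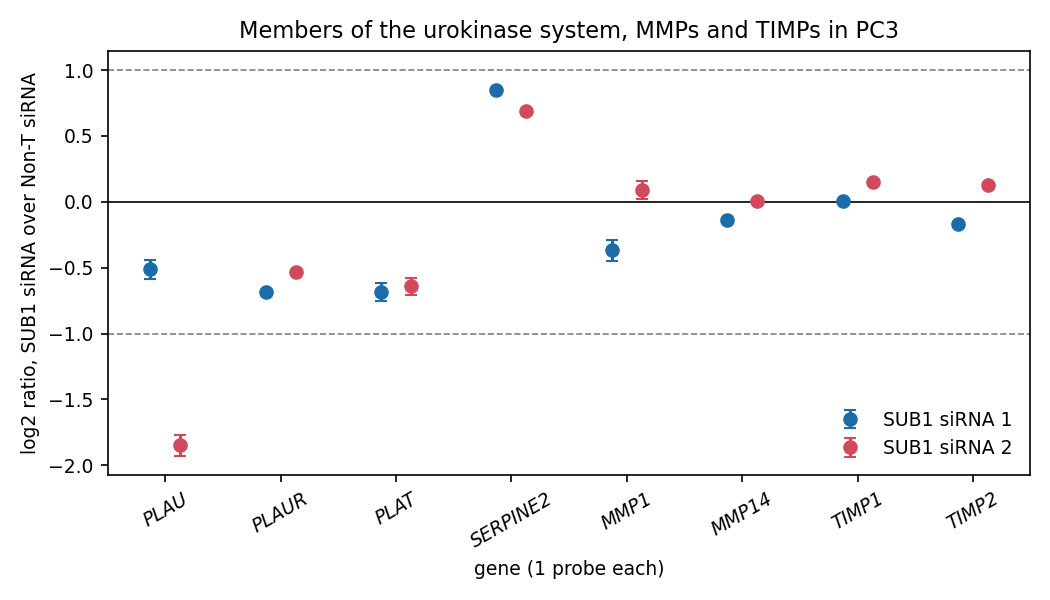
Log2 ratio to the Non-T siRNA channel (vertical axis) for the 8 member probes above background (horizontal axis), siRNA 1 in blue and siRNA 2 in red; bars are the SD over replicate spots of 1 array, drawn for the 3 probes printed as 10 spots, and dashed lines mark 2-fold. PLAU with siRNA 2, at -1.85, is the only point beyond a dashed line.

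PLAU, the urokinase gene, was measured by a probe to NM_002658 at chr10:75347056-75347115 on the plus strand (hg18, the build named in the array files). Its normalized Non-T signal was 15.11 beside siRNA 1 and 15.09 beside siRNA 2, and its SUB1 siRNA signal was 14.60 and 13.25. The control channels were therefore nearly equal, with a difference of -0.018, and the arrays differed by -1.35 in the SUB1 siRNA channel. Over all 25673 probes above background, the SD of the same between-array difference was 0.117 in Cy3 and 0.305 in Cy5.

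Leaving out 2 spots that the scanner software marked as outliers, the 8 spots of the PLAU probe kept with siRNA 1 had a lowest ratio of -0.61, a median of -0.52 and a highest of -0.38. The 10 spots on the siRNA 2 array had a lowest ratio of -1.96, a median of -1.85 and a highest of -1.75. The spots of the arrays did not overlap, and the distance between them was far larger than the spot SD of 0.073 and 0.077. The mean ratios were -0.51 with siRNA 1 and -1.85 with siRNA 2, the latter a 3.60-fold lower signal. Of the 25673 probes, 11, that of PLAU included, had a ratio at or below that of PLAU with siRNA 2, and 1009 had one at or below that of PLAU with siRNA 1. The siRNA 2 ratio was thus lower, the difference being -1.33, and 48 probes had a difference at or below it. With 1 array per siRNA this difference has no test. The mean over both siRNAs was -1.18 with a standard error of 0.32 (limma, moderated), and its adjusted p in limma was 0.160. PLAU is a very bright probe, and its ratio with siRNA 1 was -0.094 under median centring, in which the median of each array is set to 0 and no loess curve is fitted, whereas that with siRNA 2 was -1.44.

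**Figure D2:**
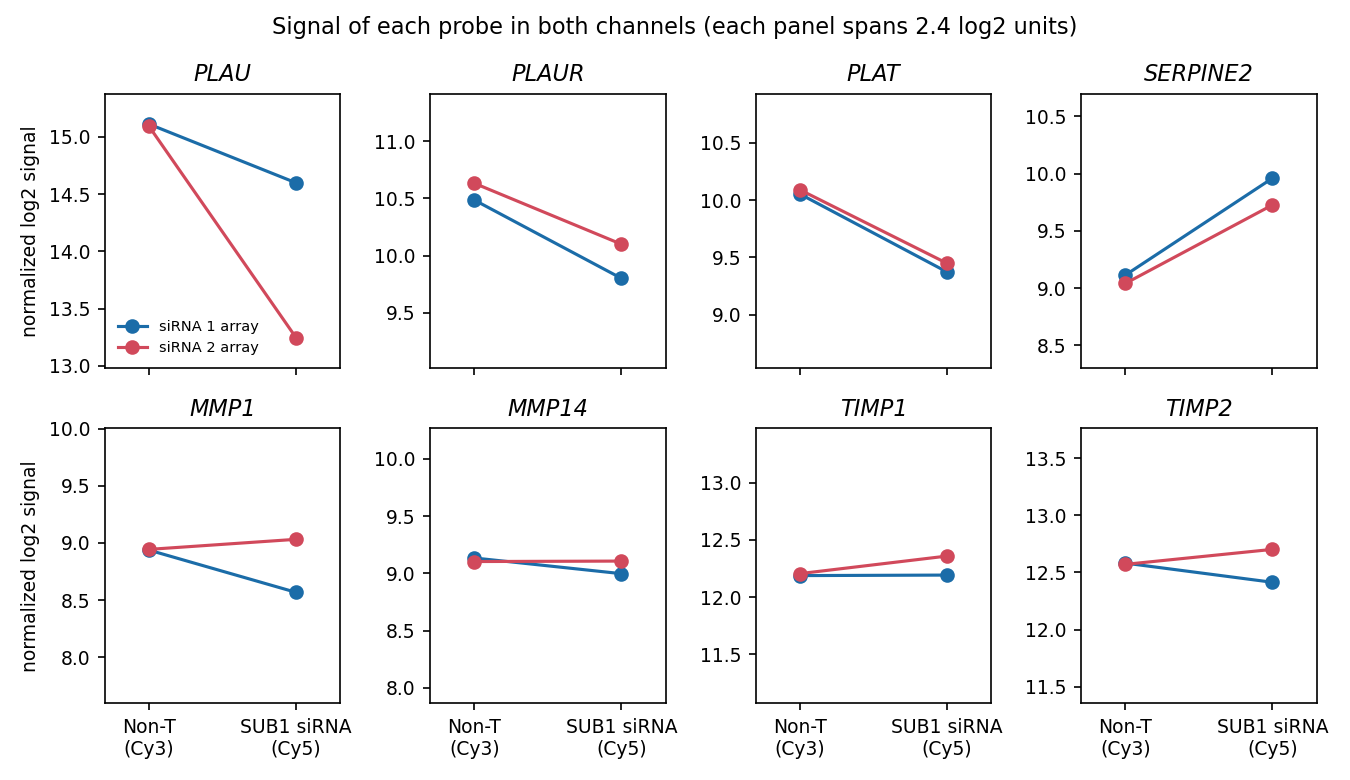
Normalized log2 signal (vertical axis) of each member probe in the Non-T channel (Cy3) and the SUB1 siRNA channel (Cy5), with a line joining both channels of 1 array (siRNA 1 in blue, siRNA 2 in red); all panels span the same range, but levels of different probes are not comparable. The PLAU lines start together at 15.11 and 15.09 and end at 14.60 and 13.25, and the SERPINE2 lines are the only pair that both climb by more than 0.6.

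PLAUR, the glycolipid-anchored urokinase receptor, was measured by 1 spot of a probe to NM_001005377 at chr19:48861338-48861397 on the minus strand (hg18). In the Non-T channel it gave 10.49 and 10.63, and in the SUB1 siRNA channel 9.80 with siRNA 1 and 10.10 with siRNA 2. Both SUB1 siRNA signals lay below both Non-T signals. The ratios were -0.68 and -0.53, or 62.2% and 69.1% of control, and differed from each other by 0.15, less than the SD of 0.307 of that difference over all probes. The mean ratio was -0.61 with a standard error of 0.100, and the adjusted p in limma was 0.105. With median centring the siRNA 2 ratio was -0.29.

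PLAT, the tissue-type plasminogen activator, was measured by 10 spots of a probe to NM_000930 on chromosome 8. Its Non-T signal was 10.05 and 10.09, and its SUB1 siRNA signal 9.37 and 9.45. Spot ratios had a lowest value of -0.80, a median of -0.68 and a highest value of -0.57 with siRNA 1, and -0.75, -0.62 and -0.55 with siRNA 2. Unlike those of PLAU, the spots of the arrays overlapped almost entirely. The mean ratios of -0.68 (spot SD 0.068) and -0.64 (spot SD 0.066) differed by 0.039, which is within the spot SD, and corresponded to 62.4% and 64.0% of control. Over both siRNAs the mean was -0.66 with a standard error of 0.094, and the adjusted p in limma was 0.103. With median centring the siRNA 2 ratio was -0.42.

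SERPINE2, also called protease nexin 1, is a serpin that inhibits urokinase, tissue-type plasminogen activator and thrombin. It was measured by 1 spot of a probe to NM_006216 that the array places at chr2:224548841-224550539 on the minus strand (hg18), a span of 1699 bases for a probe of 60 bases. Its Non-T signal was 9.11 and 9.04, and its SUB1 siRNA signal 9.96 and 9.73. Both SUB1 siRNA signals lay above both Non-T signals, and SERPINE2 was the only member above control by more than 0.2, although MMP1, TIMP1 and TIMP2 with siRNA 2 were so too under median centring and in the authors' table of processed values, as was TIMP1 with siRNA 1 under median centring. The ratios were 0.85 and 0.69, or 180% and 161% of control. The mean was 0.77 with a standard error of 0.101, and the adjusted p in limma was 0.103. Probes with a ratio at or above that of SERPINE2 numbered 125 with siRNA 1 and 516 with siRNA 2.

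**Figure D3:**
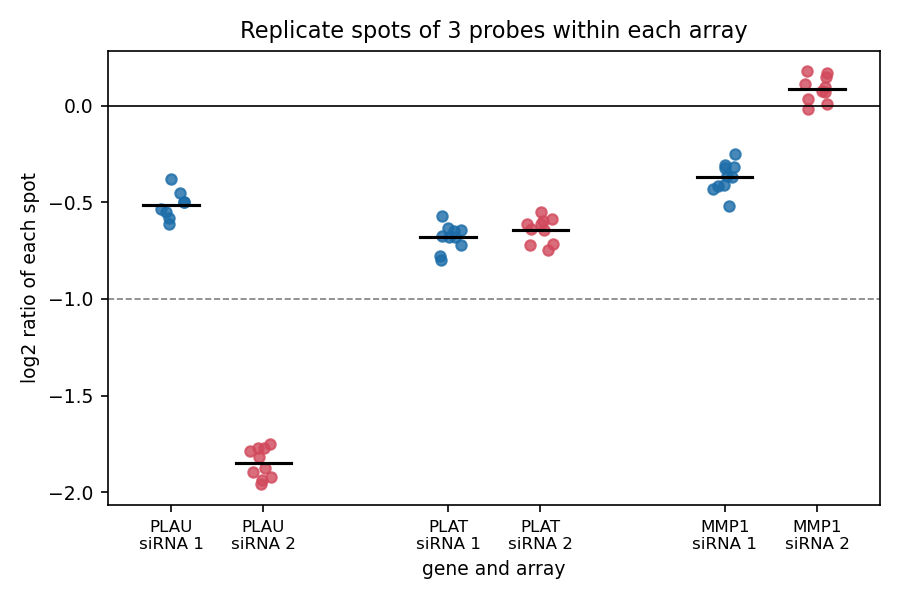
Log2 ratio of every kept spot (points, vertical axis) of the 3 member probes above background that were printed as 10 spots, by gene and array (horizontal axis), with the mean as a black line and 2-fold as a dashed line. The spots of PLAT overlap between the arrays, those of PLAU lie at -0.61 to -0.38 against -1.96 to -1.75, and those of MMP1 lie on both sides of 0.

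MMP1, interstitial collagenase, was measured by 10 spots of a probe to NM_002421 at chr11:102165907-102165966 on the minus strand (hg18). Its Non-T signal was 8.94 on both arrays, and its SUB1 siRNA signal was 8.57 with siRNA 1 and 9.03 with siRNA 2. Spot ratios had a lowest value of -0.52, a median of -0.36 and a highest value of -0.25 with siRNA 1, and -0.018, 0.088 and 0.18 with siRNA 2. The spots of the arrays did not overlap, and all those of siRNA 1 were below 0. The mean ratios were -0.37 (spot SD 0.077) and 0.088 (spot SD 0.066), and the adjusted p in limma was 0.604. In the table of processed values from the authors, used as an alternative, they were -0.18 and 0.25.

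MMP14, the membrane-type metalloproteinase that activates MMP2 at the cell surface together with TIMP2, was measured by 1 spot of a probe to NM_004995 at chr14:22385631-22385690 on the plus strand (hg18). Non-T signals of 9.14 and 9.10 stood beside SUB1 siRNA signals of 8.998 and 9.11. The 4 signals lay within a narrow range, with ratios of -0.14 and 0.0041 and an adjusted p in limma of 0.732. The ratio with siRNA 1 was 0.058, of the opposite sign, with median centring.

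MMP2, gelatinase A, was not measurable: none of its 10 spots at chr16:54096763-54096822 on the plus strand (hg18) was well above background in Cy3 on either array, and in Cy5 a fraction of 0.1 of them was so with siRNA 1 and none with siRNA 2. No ratio is drawn from it, and its RNA may be present below what the probe detects.

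TIMP1, the inhibitor of many secreted metalloproteinases, was measured by 1 spot of a probe to NM_003254 at chrX:47329610-47329669 on the plus strand (hg18). The Non-T signals were 12.19 and 12.20, and the SUB1 siRNA signals 12.19 and 12.36. Signals in all channels were thus close, with ratios of 0.0045 and 0.15 and an adjusted p in limma of 0.681. With median centring the ratios were 0.29 and 0.46.

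TIMP2, which both inhibits MMP2 and takes part in its activation by MMP14, had 1 measurable probe, to NM_003255 at chr17:74363249-74363308 on the minus strand (hg18). The Non-T signals were 12.58 and 12.57, and the SUB1 siRNA signals 12.41 and 12.70. The siRNA 1 signal lay below both Non-T signals and the siRNA 2 signal above both, with ratios of -0.17 and 0.13 and an adjusted p in limma of 0.942. With median centring both ratios were above 0, at 0.13 and 0.45. The second probe named TIMP2, to the cDNA AK057217 at chr17:74398565-74398624, was not well above background in either channel of either array.

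Promoter sequence is shown for 3 members. RefSeq promoter sequences (GRCh38.p14) were at hand for 5 of the members with 7 start sites, namely PLAU and SERPINE2 with 2 each and PLAUR, MMP14 and TIMP1 with 1 each, and the 250 bases before each start were searched on both strands. The AP-1 motif TGANTCA, which is bound by FOS and JUN family dimers, was found in 1 of 7, that of PLAUR, at 186 bases before the start, and in 6.57% of all 35116 promoters. The GC box GGGCGG was found in 5 of 7, namely 1 of the 2 PLAU windows, both of SERPINE2, and those of MMP14 and TIMP1, and in 42.6% of all, and the TATA box letters TATAAA in 0 of 7 and in 10.7% of all. These matches are letters in a window and not binding sites, and the GC box letters occurred both in members that lay apart from control and in members near it. The 3 sequences shown are those that end at the outermost start of the gene, as the windows of PLAU and SERPINE2 lie within the span of the gene. In each sequence, written 5′ to 3′ on the strand of the gene and ending at the base before the start, capitals mark the motif, which is AP-1 in PLAUR (chr19:43670170-43670419, minus strand) and the GC box in MMP14 (chr14:22836465-22836584, plus strand) and TIMP1 (chrX:47582316-47582435, plus strand, where it reads on the opposite strand).
PLAUR: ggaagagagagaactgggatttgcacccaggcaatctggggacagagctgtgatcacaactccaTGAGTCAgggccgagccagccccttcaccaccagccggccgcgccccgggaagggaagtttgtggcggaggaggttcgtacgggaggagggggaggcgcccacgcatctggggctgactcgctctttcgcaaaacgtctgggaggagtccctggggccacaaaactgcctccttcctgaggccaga
MMP14: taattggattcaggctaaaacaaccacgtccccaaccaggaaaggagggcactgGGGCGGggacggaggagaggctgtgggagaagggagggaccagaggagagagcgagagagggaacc
TIMP1: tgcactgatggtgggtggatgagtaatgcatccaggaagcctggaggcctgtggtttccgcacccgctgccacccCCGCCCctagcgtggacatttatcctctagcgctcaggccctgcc

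The members were then set against the array as a whole. At the threshold of 2-fold, 0 of 8 member probes passed in either direction with siRNA 1, where 0.557% of all probes were at least 2-fold lower and 0.195% at least 2-fold higher. With siRNA 2, 1 of 8 passed as lower (PLAU) and 0 as higher, beside 0.923% and 0.526% of all probes. With siRNA 1, 6 of the 8 ratios were below 0, with a median of -0.27, beside 47.5% of all probes below 0 and a median of 0.014. With siRNA 2, 3 of the 8 were below 0, with a median of 0.046, beside 47.6% of all probes and a median of 0.015. Under median centring 4 of the 8 were below 0 with siRNA 1 and 3 with siRNA 2, with medians of -0.018 and 0.24, beside 33.6% and 34.7% of all probes below 0. In the test of both siRNAs against 0, 0.0117% of probes passed an adjusted p of 0.05 in limma, which were 3 probes of SUB1. No member did so, whereas 4 of the 8 (PLAU, PLAUR, PLAT and SERPINE2) had an unadjusted p under 0.05 in limma, as did 5455 of all 25673 probes.

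**Figure D4:**
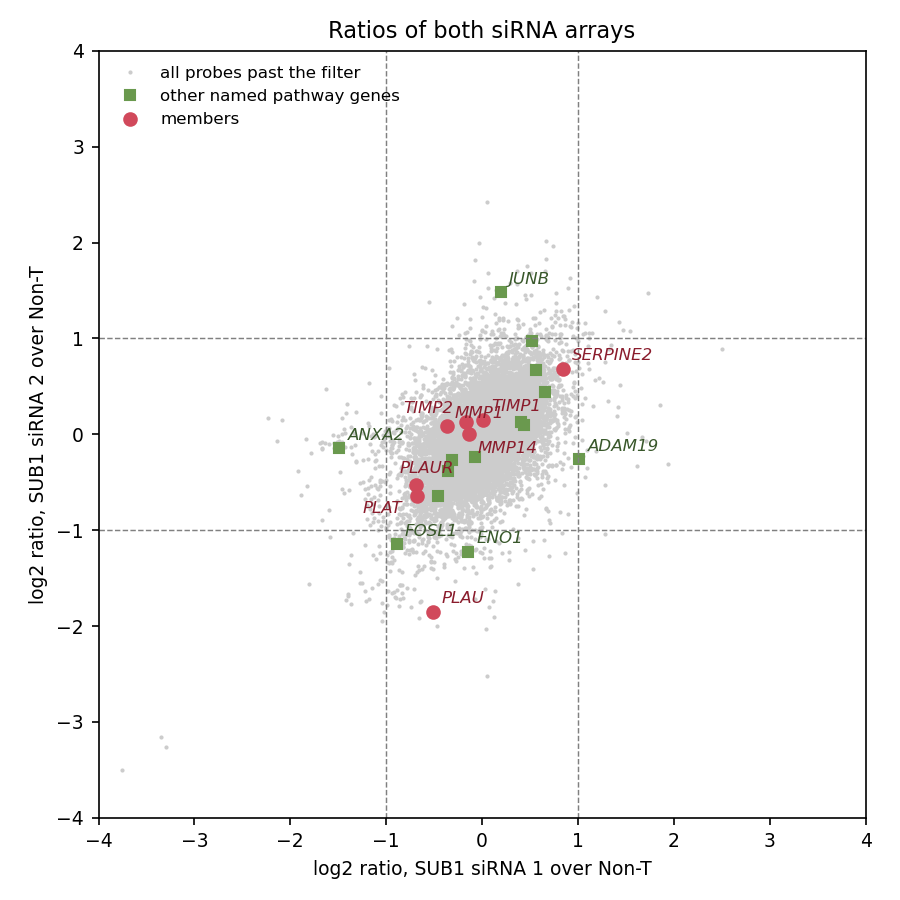
Log2 ratio with SUB1 siRNA 1 (horizontal axis) against that with SUB1 siRNA 2 (vertical axis) for all 25673 probes above background (grey), the 8 members (red circles) and the 14 other pathway genes chosen by the naming rule (green squares, labelled where past 2-fold on either array); dashed lines mark 2-fold. PLAUR and PLAT lie together at about equal ratios on both axes, PLAU lies far below them on the siRNA 2 axis only, and the outermost grey points at the lower left are SUB1.

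Other genes of the same pathways were described from 6 lists of 102 genes, each by its brightest probe above background, which was found for 78. Of these 78, 1 was at least 2-fold lower and 1 higher with siRNA 1, and 2 were lower and 1 higher with siRNA 2. Over all 19378 genes taken in the same way, 0.604% were lower and 0.206% higher with siRNA 1, and 1.06% were lower and 0.609% higher with siRNA 2. The median ratios of the 78 genes were -0.047 and -0.016, beside 0.024 and 0.024 over all genes, and none of the 78 passed an adjusted p of 0.05 in limma. An unadjusted p under 0.05 in limma was seen for 21 of the 78 and for 4239 of all 19378 genes.

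Of 21 further genes of the plasminogen system, 17 were measured, with medians of -0.076 and -0.048. ANXA2, a cell-surface protein that binds plasminogen and PLAT, had a ratio of -1.49 with siRNA 1 and -0.14 with siRNA 2, and its 3 probes gave -1.69 to -1.37 and -0.14 to -0.096. ENO1, a glycolytic enzyme that also binds plasminogen on the cell surface, stood the other way round, at -0.14 with siRNA 1 and -1.23 with siRNA 2. Each of these plasminogen receptors thus passed 2-fold with a different siRNA, the difference between siRNAs having no test. SERPINB2, the plasminogen activator inhibitor type 2, had ratios of 0.52 and 0.97 (adjusted p in limma 0.116), while its other probe gave 0.087 and 0.32.

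None of the 12 measured genes of 20 other MMPs passed 2-fold on either array, and their medians were 0.035 and 0.039. The largest mean ratios were those of MMP9, gelatinase B, at 0.41 and 0.13, and MMP13, a collagenase, at 0.43 and 0.10. Neither passed the test (adjusted p in limma 0.271 and 0.287). On the list of inhibitors and activators of metalloproteinases, 6 of 11 genes were measured and none passed 2-fold, with medians of -0.11 and -0.20. The measured genes included SPINT1, SPINT2 and TFPI2, which are inhibitors of serine proteases. BSG, the cell-surface inducer of MMPs in neighbouring cells, was at -0.31 and -0.26 by its brightest probe and -0.14 and -0.046 by its other probe. SPINT1, an inhibitor of the proteases that activate hepatocyte growth factor, was at -0.076 and -0.24.

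Among other proteases of invasion, 17 of 18 were measured, with medians of -0.072 and -0.072, and only ADAM19, a membrane-bound metalloproteinase, passed 2-fold. Its brightest probe was at 1.01 with siRNA 1 and -0.26 with siRNA 2, and its other probe at 0.40 and -0.12. ADAM17, the sheddase of tumour necrosis factor and of epidermal growth factor receptor ligands, was at 0.56 and 0.67, with all 3 probes above 0 on both arrays (adjusted p in limma 0.105). CTSV, a lysosomal cathepsin listed on the array under an older symbol, was at -0.46 and -0.65 (adjusted p in limma 0.115).

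Of 20 genes of transcription factors, growth factors and growth factor receptors known to act on protease genes, 18 were measured, with medians of -0.072 and 0.075. FOSL1, the FOS family member FRA-1 of AP-1, was at -0.89 with siRNA 1 and -1.14 with siRNA 2, and its second probe at -0.68 and -0.88. Its adjusted p in limma was 0.103. JUN and JUND, which the naming rule did not choose, were at 0.35 and 0.14 and at 0.59 and 0.84. JUNB, a JUN family member of AP-1, was at 0.19 and 1.48, but its second probe was at -0.16 and 0.37, so the 2-fold difference with siRNA 2 was seen with 1 of its 2 probes. Of 12 matrix proteins cleaved by these enzymes, 8 were measured and none passed 2-fold. Their medians were -0.033 and -0.013. FN1, fibronectin, was at -0.35 and -0.38 by its brightest probe (adjusted p in limma 0.148), and the ratios of its 3 probes spanned -0.56 to -0.059 for siRNA 1 and -0.38 to -0.046 for siRNA 2. COL1A1, a chain of type I collagen, was at 0.66 and 0.45 (adjusted p in limma 0.118).

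The members' ratios were also computed under other processing settings. The ratio of PLAU with siRNA 2 lay between -1.92 and -1.44, and it was past 2-fold under each of the 10 settings applied to the count of probes. Those of PLAUR lay between -0.70 and -0.46 with siRNA 1 and between -0.54 and -0.29 with siRNA 2, and those of PLAT between -0.72 and -0.47 and between -0.68 and -0.42. The ratio of SERPINE2 lay between 0.83 and 1.06 and between 0.66 and 0.89, and passed 2-fold with siRNA 1 under median centring. Signs of these 4 genes, and of MMP1, were kept under all settings tried, on both arrays, whereas those of MMP14, TIMP1 and TIMP2 with siRNA 1 were not.

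**Figure D5:**
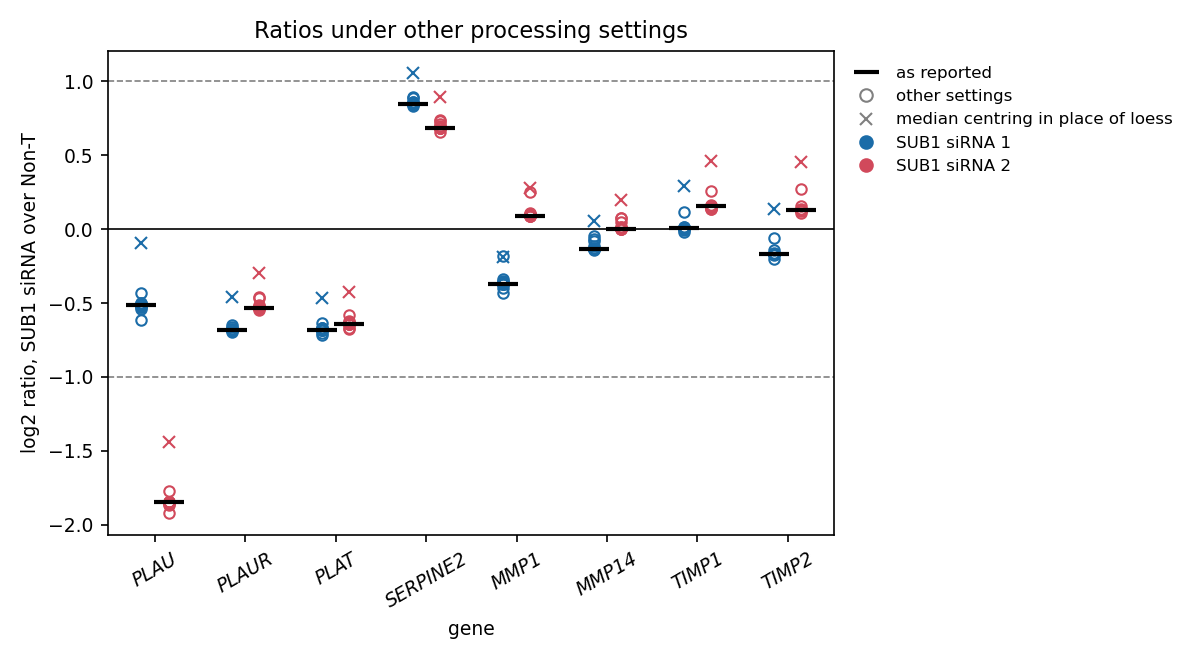
Log2 ratio to the Non-T siRNA channel (vertical axis) for each member gene (horizontal axis) under the reported setting (black bars) and the other settings (circles, with crosses for median centring in place of loess), siRNA 1 in blue and siRNA 2 in red; dashed lines mark 2-fold. Median centring gives the highest ratio for nearly every gene, moving PLAU with siRNA 1 from -0.51 to -0.094 and SERPINE2 with siRNA 1 from 0.85 to 1.06.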

How the data were processed

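The authors hybridised 2 dual-colour Agilent Whole Human Genome arrays, quantified with Agilent Feature Extraction 9.5.1.1 per the file headers, and deposited for each spot the mean and median intensity, local background and processed intensity of both channels. A separate deposited table holds log2 ratios per probe after loess with the R package agilp. Here mean intensities were corrected with normexp (offset 50), normalized by loess within each array (span 0.3) in limma 3.58.1 (R 4.3.3), freed of outlier spots and averaged per probe. Channel signals were also normalized between arrays (Aquantile). A probe was kept where a fraction of at least 0.5 of its spots was well above background in 1 channel or more on both arrays (25673 probes). Probes called were those at least 2-fold from control (log2 of 1), without a test. Both arrays were also tested together as 2 knockdowns against 0 with limma (intercept, two-sided, Benjamini-Hochberg over all kept probes, threshold 0.05), which leaves out the spread of the control. The procedure was tested on simulated data. The number of arrays limits the precision. The deposited files also hold, per spot, log10 ratios and p-values from the error model of the software, which were not used. The members and lists were chosen with earlier results of these data known. The rule for named genes took all member probes and, per list, genes past 2-fold on either array and the 2 with the largest absolute mean ratio. Probe coordinates are those of the array files (hg18), for which no annotation was used, so exon and UTR positions were not assigned. Motifs were searched with Python 3.11.15.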

Additional observations from a re-analysis of the deposited data

Results flagged for a closer look

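MMP1, interstitial collagenase, had a log2 ratio of -0.37 with SUB1 siRNA 1 and 0.088 with SUB1 siRNA 2, and was singled out because the arrays lay on opposite sides of 0, each by more than the SD of its spots. TIMP2, the inhibitor that also takes part in MMP2 activation, lay on opposite sides of 0 in the same way, at -0.17 with siRNA 1 and 0.13 with siRNA 2. It has 1 spot, so the median SD of the probes above background that were printed as replicate spots was used for it. Neither difference was tested, as each siRNA has 1 array.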

How the results depend on the processing

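Of 333 values recomputed under other settings for the members and lists, 301 stayed on their side of the threshold or within the spot error, 30 moved by more, 2 newly passed the test and none lost a call or reversed a called value. With median centring 1 member probe was at least 2-fold changed with siRNA 1 (SERPINE2, 1.06) in place of 0. The medians over the 25673 kept probes were then 0.108 and 0.104, in place of 0.014 and 0.015. They were not 0 because the centring took in the dim probes too. Without the filter on dim probes 2 members passed an adjusted p of 0.05 in limma (PLAT, 0.0459, and SERPINE2, 0.0440), as did 452 of 40999 probes in place of 3 of 25673. Feature Extraction processed signals gave 8 other pathway genes at least 2-fold changed with siRNA 1 in place of 2 and 10 with siRNA 2 in place of 3, and with them 386 probes of the array were lower and 1020 higher with siRNA 1 (143 and 50 in the reported setting) and 642 and 1307 with siRNA 2 (237 and 135). The share of higher among 2-fold calls was 25.9% and 36.3%, but 70.4% and 72.9% with median centring (71 lower and 169 higher, 115 and 310), 72.5% and 67.1% with processed signals, 36.6% and 48.2% in the authors' table, and 36.5% and 41.7% with a normexp offset of 16 (183 lower and 105 higher, 312 and 223). No probe, SUB1 included, passed the adjusted p with processed signals or the authors' table. Causes were not tested.

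The authors' table correlated across probes with loess ratios of median signals at r of 0.958 and 0.970, with a slope of 0.906 and 0.921 and column medians of -0.0054 and -0.0068. Its direction and log2 scale were taken from this comparison and its centring from the medians. The control lies on the same array as each siRNA, so every ratio is already paired with its control within the array. No further pairing was available, as each siRNA has 1 array. Leaving out an array leaves no residual degree of freedom, and both arrays lie on 1 slide, so neither setting was run. Single-spot probes have no error within an array, and background limits MMP2.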

Other observations

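The genes in this paragraph were chosen after their values were seen, and each has 1 array per siRNA. ADAM8, a membrane-bound metalloproteinase of leukocytes and tumour cells, had a log2 ratio of 0.69 with SUB1 siRNA 1 and -0.44 with SUB1 siRNA 2. MMP7, matrilysin, was at 0.21 and -0.41. RECK, a membrane-anchored inhibitor of MMPs, was at 0.26 and -0.30 by its brightest probe, but its other probe was at -0.61 and -0.80, so its probes disagreed in sign with siRNA 1. The lysosomal cathepsins CTSB and CTSL were at -0.16 and -0.53 (3 probes, from -0.36 to 0.087 and from -0.57 to -0.073) and at -0.19 and -0.42 (1 probe). Cathepsins did not share 1 direction: CTSD was at -0.20 and -0.072, but CTSK was at 0.48 and 0.42. CTSS, not well above background in Cy3, was at 0.19 and 0.44. JUND, a JUN family member of AP-1, had an adjusted p in limma of 0.104. None of these genes passed an adjusted p of 0.05 in limma.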
